A study of Mus musculus with 4 samples.

Results

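The genes described here are those of glycolysis, of lactate and pyruvate handling and of the cellular response to low oxygen. They were chosen by name: of 42 listed mouse symbols, 40 matched a row among the 24689 genes of the deposited expression table, and 36 of these passed a filter on low values (a mean over the 4 libraries of at least 1 CPM, a gene's reads scaled by its library's total, where 1 CPM stood for 25.8 to 35.3 reads). Slc2a3, Aldoc, Slc16a3 and Epas1 were in the table below that level and were not tested. Egln3 and Ero1a had no row under those symbols. Apart from the counts of members and of promoter windows, Egln3 is not analysed here, and Ero1a is given only under its older symbol.

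RNA sequencing was done on HT-22 cells, an immortalized mouse cell line that the labels call hippocampal neurons. The control group held 2 libraries, labelled uninduced in one field and wild type in the titles. The induced group held 2 libraries of HT-22 cells with Pja2 induced, titled Pja2-pb. Pja2 encodes a RING-type ubiquitin ligase known to act on protein kinase A regulatory subunits. All cells were at passages 21 to 24. The labels give neither the induction system, nor its duration, nor the oxygen level, and do not say whether both groups came from 1 clone or whether the replicates were separate cultures. The p-values therefore measure the spread between these libraries, which may be technical.

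Glycolysis splits glucose into pyruvate and yields ATP without oxygen. Lactate dehydrogenase then turns pyruvate into lactate, which regenerates the NAD+ that glycolysis needs, and pyruvate dehydrogenase kinases hold pyruvate back from the mitochondria. When oxygen is scarce, prolyl hydroxylases of the EGLN family no longer mark HIF alpha subunits for destruction by the VHL ubiquitin ligase, and HIF paired with ARNT binds DNA at a short core motif near its target genes, which include many glycolytic enzymes. Neurons and many cultured cells depend on this pathway for energy.

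Pja2 itself (ENSMUSG00000024083) gave 6167 and 5881 normalized reads in the control libraries, against 54830 and 54244 in the induced libraries. It was 9.05-fold higher (log2 fold change 3.18, SE 0.06, limma adjusted p = 6.36e-05), as the labels state. Normalized reads are the values of the deposited table taken off the log2 scale. The libraries held 25787452 to 35262653 reads and 20494 to 21289 genes with at least 1 read. Of 11 neuronal markers, 6 had a row and 1, Tubb3, reached 1 CPM, and the summed level of the list was 588.7 to 646.4 normalized reads in the controls, against 739.1 to 747.1 after induction. Nearly all of that sum was Tubb3, at 598.2 normalized reads in the control mean and 719.6 in the induced mean. Tubb3 was not called (limma adjusted p = 0.229), and the rest of the list lay below the filter. Snap25, Map2 and Rbfox3 had no row, and Nefl and Syt1 each had reads in 1 library. Of 7 fibroblast markers, 6 reached 1 CPM, summing to 258695 to 293642 normalized reads in the controls, against 271619 to 272137 after induction. Of these 6, Dcn alone was called, lower in induced cells (906.7 against 275.5 normalized reads, limma adjusted p = 0.0259). Of the other lists, 2 of 6 astrocyte, 1 of 6 oligodendrocyte, 2 of 6 microglia and 0 of 5 endothelium markers reached 1 CPM, and these 5 genes did not pass (lowest limma adjusted p = 0.0618, for Aldh1l1). The part of Dcn and of the neuronal list in the results below was not tested.

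Few of these genes were called different when Pja2 was induced. Among the 36 tested members, Ldhb, the heart-type subunit of lactate dehydrogenase, rose 1.95-fold, while P4ha2, a collagen prolyl hydroxylase subunit, and Ndrg1, a stress-responsive gene, fell to levels 1.33-fold and 1.40-fold below control. The other 33 did not pass an adjusted p of 0.05 (limma with Benjamini-Hochberg adjustment over 13276 tested genes). Over all tested genes 3.42% were called, 2.08% higher and 1.34% lower, against 3 of 36 members (8.33%). The share of the members rests on 3 genes. In bulk RNA, a change in the makeup of the cells and a change of RNA per cell cannot be told apart.

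The counts by direction were close to those of all tested genes. The members' median log2 fold change (induced minus control) was -0.02, against 0.00 for all tested genes, with 17 members above 0 and 19 below. Both induced libraries lay above both controls for 9 members (25%, against 26.2% of all tested genes), and below both for another 9 (25%, against 25.1%). In the remaining 18 the groups overlapped. The induced libraries also differed from each other: 24 of 36 members (66.7%) were higher in induced replicate 1 than in replicate 2, against 48.2% of all tested genes. Among the controls, 26 of 36 (72.2%) were higher in replicate 2, against 51.5% of all tested genes.

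**Figure D1:**
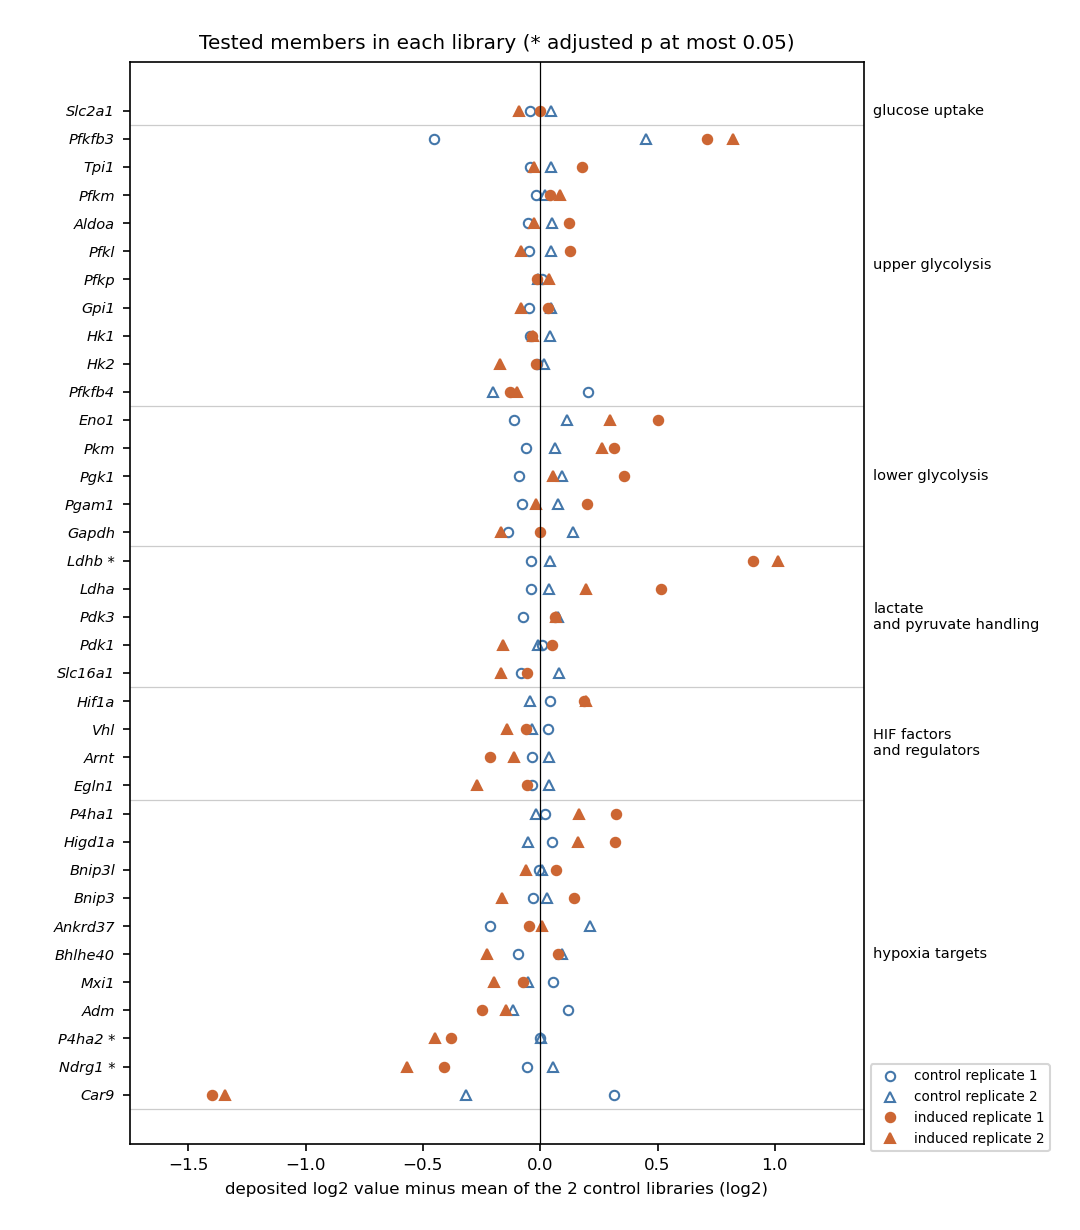
Each row is 1 tested member and each point 1 library, plotted as the deposited log2 value minus the mean of the 2 control libraries; open symbols are controls, filled symbols are induced libraries, and an asterisk marks an adjusted p of at most 0.05. The groups overlap in 18 of the 36 rows, Ldhb stands to the right, and Ndrg1, P4ha2 and Car9 stand to the left.

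At the entry of the pathway, the glucose transporter gene Slc2a1 (GLUT1) was at 6646 and 7077 normalized reads in the controls, against 6861 and 6446 after induction. The groups overlapped, and the log2 fold change was -0.04 (SE 0.07, limma adjusted p = 0.769). Slc2a3, which encodes the neuronal transporter GLUT3, had 0 and 3 reads in the controls, against 0 and 4 after induction. That is at or near the floor of 3 reads per library, which stands for 0.0851 to 0.116 CPM and covers counting error only.

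None of the 10 tested genes of upper glycolysis, from hexokinase to triose phosphate isomerase with the PFKFB regulators, passed the threshold in limma or in limma voom. An unadjusted limma p under 0.05 was reached by 1 of the 10, beside 2535 of the 13276 tested genes. The median log2 fold change of the 10 was 0.02. Aldoa, the aldolase with the most reads of the group, was at 25419 and 27246 normalized reads in the controls, against 28616 and 25865 after induction. These overlapped, with a log2 fold change of 0.05 (SE 0.08, limma adjusted p = 0.780). Hexokinases Hk1 and Hk2 had log2 fold changes of -0.03 and -0.09, and glucose phosphate isomerase (Gpi1) one of -0.02. The 3 phosphofructokinase genes Pfkl, Pfkm and Pfkp, which encode the committed step, lay between 0.01 and 0.06, and triose phosphate isomerase (Tpi1) at 0.08. Aldoc, the brain aldolase, was at 9.3 to 30.4 normalized reads and was not tested.

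Pfkfb3 had the largest log2 fold change of upper glycolysis. It encodes an enzyme that makes fructose 2,6-bisphosphate, the strongest activator of phosphofructokinase. The control libraries differed widely, at 855.1 and 1603 normalized reads, and the induced libraries were at 1918 and 2072. Both induced libraries lay above both controls, but the gap within the controls was larger than that between the nearest libraries of the groups. The log2 fold change of 0.77 (SE 0.28) did not pass (limma adjusted p = 0.221). Without control replicate 1 it was 0.31, and without control replicate 2 it was 1.22 and passed (limma adjusted p = 0.0138). Its relative Pfkfb4 was at -0.11.

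The 5 genes of lower glycolysis, from glyceraldehyde phosphate to pyruvate, reached a median of 0.21 (log2 fold change), the highest of the role groups with more than 1 member. Again none passed in limma or limma voom, with 2 of the 5 at an unadjusted limma p under 0.05, beside 2535 of the 13276 tested genes. Pkm encodes pyruvate kinase, which makes pyruvate and ATP. It was at 65627 and 71526 normalized reads in the controls, against 85273 and 82321 after induction. The groups did not overlap, and the log2 fold change was 0.29 (SE 0.07, limma adjusted p = 0.106). Enolase (Eno1) showed the same order, with 32652 and 38149 normalized reads in the controls, against 49962 and 43430 after induction. Its log2 fold change of 0.40 (SE 0.11) did not pass either (limma adjusted p = 0.123). For Pgk1, Pgam1 and Gapdh the groups overlapped, with log2 fold changes of 0.21, 0.09 and -0.08. All 5 genes were higher in induced replicate 1 than in replicate 2, and all 5 were higher in control replicate 2 than in replicate 1. Leaving out induced replicate 1 took the median of the 5 to 0.06, and leaving out control replicate 1 took it to 0.11.

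These are among the genes with many processed copies in the mouse genome. Of all 50-base stretches in the exons of each gene in the GENCODE M21 annotation, 53.9% for Pgk1, 36.2% for Pgam1, 26.0% for Eno1, 25.8% for Pkm and 25.1% for Gapdh occur in another gene as well, so reads may have been split between them and the levels of these genes are uncertain. The copies that were examined lay near their parents: Eno1b had a log2 fold change of 0.38 (limma adjusted p = 0.0873), and Pgk1-rs7 one of 0.20. Pgam1-ps2 was at 0.11, and Gm6560, which shares sequence with Pkm, at 0.33. The fold changes of Gm49759 and of the Gapdh copies were not examined.

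Per kilobase of exon, the order of these abundant genes in the controls ran from Pgk1 (17216 normalized reads per kb) through Pkm (13713), Ldha (10732), Pgam1 (9379) and Aldoa (9046) to Gapdh (8600). In the induced libraries, Pgk1 (19932), Pkm (16756) and Ldha (13793) again led. The length counts every annotated exon of a gene, merged over its transcripts (4.133 kb for Gapdh, 2.244 kb for Pgk1), and not the transcript expressed. The order therefore depends on the annotation as well as on RNA level. Without division by length, Gapdh (35542 normalized reads in the control mean) lay close to Pgk1 (38633). Shared sequence adds to the uncertainty of the order. Together, the 16 enzymes from hexokinase to lactate dehydrogenase took 0.952% and 1.04% of all reads in the controls, against 1.19% and 1.06% after induction. Both induced values lay above both control values, by 1.13-fold in the mean (0.998% ± 0.0658 against 1.13% ± 0.0956, SD, n = 2 libraries each). The nearest values of the groups were 1.04% and 1.06%, and 2 libraries a group allow no exact permutation p below 0.333. The sum is weighted to the most abundant genes. Pkm alone held 21.3% and 21.0% of it in the controls, against 21.8% and 23.8% after induction. Of the 15 tested enzymes, 1 was called (Ldhb), and the groups overlapped for 9. Both induced libraries lay above both controls for 5 (33.3%, beside 26.2% of all tested genes) and below for 1 (6.67%, beside 25.1%).

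The 1 member called higher belongs to lactate handling. Lactate dehydrogenase is a tetramer of A and B subunits, from Ldha and Ldhb, of which the A form is associated with lactate production and the B form with lactate use. Ldhb (ENSMUSG00000030246) was at 244.0 and 258.0 normalized reads in the controls, against 470.8 and 508.2 after induction. Both induced libraries lay far above both controls, 251 ± 9.95 against 489.5 ± 26.4 (SD, n = 2 each), with a log2 fold change of 0.96 (SE 0.12, limma adjusted p = 0.0222). The size held at 0.91 to 1.02 when each library was left out in turn, but the call was kept in 1 of these 4 fits (limma adjusted p = 0.0467 to 0.0883), the one without control replicate 2. Of the 50-base stretches of Ldhb, 21.0% occur in its copy Gm5514, which had 16.3 and 25.3 normalized reads in the controls, against 29.4 and 42.7 after induction, below the filter.

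Ldha, by far the more abundant subunit gene, was at 34561 and 36486 normalized reads in the controls, against 50694 and 40615 after induction. Both induced libraries were above the controls, but they differed from each other by more than the nearer one differed from the controls, and the log2 fold change of 0.35 (SE 0.11) did not pass (limma adjusted p = 0.176). Per kilobase of exon, Ldhb made up 1.47% of the 2 subunit genes in each control library, and 1.92% and 2.57% in the induced libraries. The difference of the means was 0.778 percentage points, and Ldha made up nearly all of the pool in every library. The exact two-sided permutation p was 0.333, which is the smallest that 2 against 2 libraries allow. The size of the share depends on the annotated exon lengths. Of reads not divided by length, Ldhb held 0.701% and 0.702% in the controls, against 0.920% and 1.24% after induction.

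**Figure D2:**
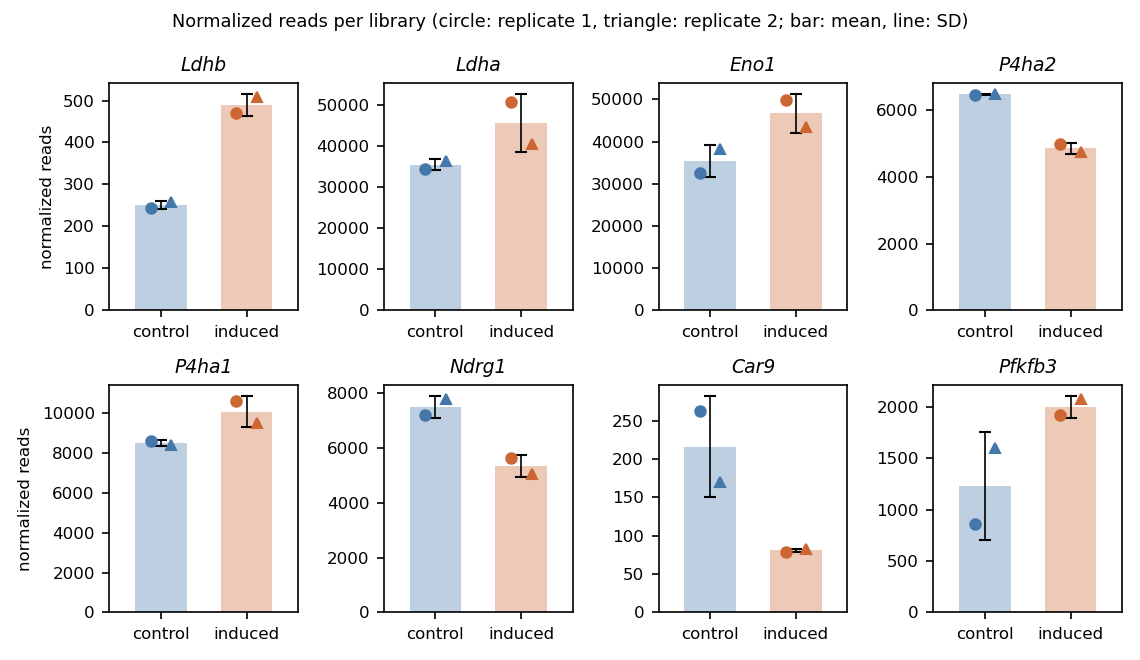
Normalized reads of 8 members in each library, with bars at the group mean and lines at ± SD (n = 2); circles are replicate 1 and triangles replicate 2, and each panel has its own linear axis from 0. Ldhb goes from 251 to 489.5, P4ha2 from 6479 to 4868 and Ndrg1 from 7496 to 5344 with groups well apart, while the induced libraries differ for Ldha and the controls differ for Pfkfb3 and Car9.

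The promoter windows of these subunit genes are shown because 1 subunit gene was called and the other was not, and HIF is a known regulator of Ldha. The windows, from RefSeq on build GRCm38.p6 (not the mm9 of the submitters' processing notes), run from 250 bases before to 50 after the start, 5′ to 3′ on the gene's strand. Capitals mark the HIF core motifs ACGTG and GCGTG on either strand (CACGT and CACGC on the other). The sequence CACGTG, which MYC and USF family factors also bind, holds ACGTG on both strands. The Ldha window is chr7:46845554-46845853 on the + strand, and the Ldhb window is chr6:142507908-142508207 on the - strand.
Ldha: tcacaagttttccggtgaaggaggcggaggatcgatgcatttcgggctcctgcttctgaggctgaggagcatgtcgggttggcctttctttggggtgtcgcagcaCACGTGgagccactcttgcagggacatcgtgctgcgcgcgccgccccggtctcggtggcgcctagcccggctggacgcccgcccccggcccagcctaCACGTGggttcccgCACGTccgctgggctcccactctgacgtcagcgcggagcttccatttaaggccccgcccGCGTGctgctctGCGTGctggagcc
Ldhb: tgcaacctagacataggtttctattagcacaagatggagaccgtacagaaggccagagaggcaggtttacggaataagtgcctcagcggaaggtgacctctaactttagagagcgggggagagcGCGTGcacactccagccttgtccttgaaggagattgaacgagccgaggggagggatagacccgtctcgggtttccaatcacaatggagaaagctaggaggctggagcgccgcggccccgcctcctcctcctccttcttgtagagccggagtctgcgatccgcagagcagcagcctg
The Ldha window held 5 matches to ACGTG and 2 to GCGTG, counted on both strands. CACGTG stands at 2 places and gives 2 ACGTG matches at each, so the 5 matches lie at fewer places. The Ldhb window held 1 GCGTG and no ACGTG. Ldha has 2 start windows in the reference, and the first listed is shown.

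Among all members, 37 of 42 had a window, and 30 of these (81.1%) held ACGTG or GCGTG, against 64.3% of 9193 tested genes with a window and 43.8% of 27025 windows over all genes. The members with a window include Egln3, Ero1a, Aldoc and Slc16a3, which were not tested under these symbols and which all held ACGTG. The comparison with tested genes is therefore not of like sets. ACGTG alone was in 22 members (59.5%), against 26.2% of tested genes, and GCGTG in 22 (59.5%), against 52.8%. CACGTG was in 5 (13.5%), against 10.3%. The members were listed in part as known hypoxia target genes, so a high share with the HIF core motif was partly set by that choice. A match is a description of letters and not a shown binding site.

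The other tested members of lactate and pyruvate handling did not pass. The lactate transporter gene Slc16a1 (MCT1) had a log2 fold change of -0.11, and the pyruvate dehydrogenase kinase genes Pdk1 and Pdk3 had -0.05 and 0.06. Slc16a3 (MCT4), a lactate exporter of glycolytic cells, was at 18.5 to 35.2 normalized reads and was not tested. The median log2 fold change over the 5 tested genes of this group was 0.06.

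None of the 4 tested HIF factors and regulators passed in limma or limma voom, with 1 at an unadjusted p under 0.05 (2535 of the 13276 tested genes were). Both induced libraries lay above both controls for 1 of the 4 and below for 3, beside 26.2% and 25.1% of all tested genes. Hif1a, the oxygen-regulated alpha subunit, was at 6838 and 6449 normalized reads in the controls, against 7568 and 7603 after induction. Both induced libraries were higher, with a log2 fold change of 0.19 (SE 0.06, limma adjusted p = 0.179). The partner Arnt (-0.16), the ubiquitin ligase subunit gene Vhl (-0.10) and the oxygen sensor Egln1 (-0.16) all lay below control in both induced libraries. The median of the 4 was -0.13. Epas1, which encodes the second alpha subunit HIF-2, had 1 read in control replicate 2 and 0 in the other 3 libraries. HIF alpha is regulated mainly at the protein level, which RNA reads do not measure.

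Over the 11 tested hypoxia target genes, the median log2 fold change was -0.07. P4ha2 and Ndrg1 fell (2 of 11, beside 1.34% of all tested genes) and none rose. Both induced libraries lay below both controls for 5 of the 11 (45.5%, beside 25.1% of all tested genes) and above for 2 (18.2%, beside 26.2%). P4ha2 (ENSMUSG00000018906) encodes an alpha subunit of the prolyl 4-hydroxylase that stabilizes collagen. It was at 6466 and 6493 normalized reads in the controls, against 4985 and 4752 after induction. The induced values were well below, 6479 ± 18.8 against 4868 ± 164 (SD, n = 2 each), with a log2 fold change of -0.41 (SE 0.06, limma adjusted p = 0.0299). Leaving out any 1 of the 4 libraries lost the call (limma adjusted p = 0.0713 to 0.124), while the log2 fold change stayed between -0.45 and -0.38.

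P4ha1, the gene of another alpha subunit, had the most normalized reads of the target group and a log2 fold change of the opposite sign. It was at 8631 and 8407 normalized reads in the controls, against 10646 and 9545 after induction. Both induced libraries were higher, but the log2 fold change of 0.24 (SE 0.07) did not pass (limma adjusted p = 0.161). Per kilobase of exon, P4ha2 made up 33.1% and 33.7% of the pair in the controls, against 23.6% and 24.7% after induction. The difference of the means was -9.25 percentage points, with an exact two-sided permutation p of 0.333, again the smallest possible, and it was -9.81 to -8.69 points when each library was left out. Of reads not divided by length, P4ha2 held 42.8% and 43.6% in the controls, against 31.9% and 33.2% after induction.

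**Figure D3:**
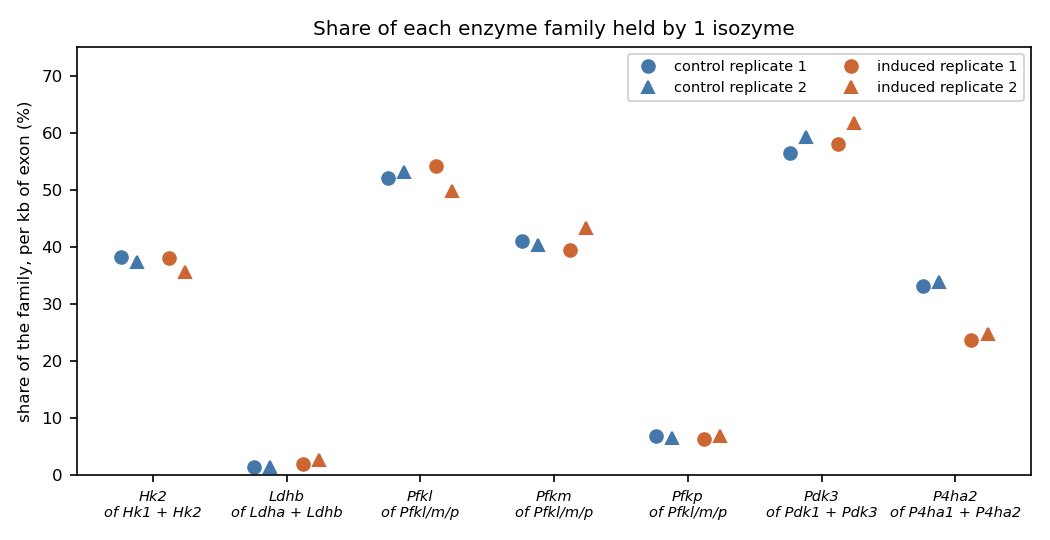
Share of normalized reads per kilobase of exon (%, linear axis from 0) held by 1 isozyme of a chosen pair or set, with 1 point per library. Circles are replicate 1, triangles replicate 2, blue control and orange induced. The sets hold listed members only and need not be whole families. The Pdk3 share is of Pdk1 and Pdk3, without Pdk2 and Pdk4. The P4ha2 share goes from about 33.4 to 24.2% with the groups apart, the Ldhb share from 1.47 to 2.25%, and the shares of the hexokinases, phosphofructokinases and Pdk3 overlap between groups.

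The windows of this pair are shown because both genes are known HIF targets and their log2 fold changes had opposite signs. The P4ha1 window is chr10:59323046-59323345 and the P4ha2 window is chr11:54100674-54100973, both on the + strand of GRCm38.p6 from RefSeq, with capitals as above.
P4ha1: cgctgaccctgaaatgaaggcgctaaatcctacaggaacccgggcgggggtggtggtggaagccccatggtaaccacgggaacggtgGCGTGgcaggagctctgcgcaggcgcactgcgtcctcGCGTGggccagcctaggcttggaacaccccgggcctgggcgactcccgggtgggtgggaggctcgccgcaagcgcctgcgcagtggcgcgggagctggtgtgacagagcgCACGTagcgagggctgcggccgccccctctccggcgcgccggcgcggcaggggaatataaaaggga
P4ha2: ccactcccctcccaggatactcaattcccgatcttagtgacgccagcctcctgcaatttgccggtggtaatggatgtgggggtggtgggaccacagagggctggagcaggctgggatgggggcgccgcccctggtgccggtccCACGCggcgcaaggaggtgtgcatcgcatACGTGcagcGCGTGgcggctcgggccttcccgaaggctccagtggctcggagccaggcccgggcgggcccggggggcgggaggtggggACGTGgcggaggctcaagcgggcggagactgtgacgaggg
P4ha1 held 1 ACGTG and 2 GCGTG, and P4ha2 held 2 of each. Both windows hold both motifs.

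Ndrg1 (ENSMUSG00000005125), which is induced by hypoxia and other stresses and acts in growth and differentiation, was at 7212 and 7781 normalized reads in the controls, against 5635 and 5052 after induction. All induced values were below all controls, 7496 ± 402 against 5344 ± 412 (SD, n = 2 each), with a log2 fold change of -0.49 (SE 0.08, limma adjusted p = 0.0378). With no filter on low values or without the variance trend, neither P4ha2 (limma adjusted p = 0.0655 and 0.126) nor Ndrg1 (limma adjusted p = 0.0829 and 0.141) passed. The Ndrg1 call held in 1 of the 4 fits that left out a library, the one without induced replicate 1 (limma adjusted p = 0.0429 to 0.118 over the 4). Its exons overlap those of 2 predicted genes.

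Car9, the cell-surface carbonic anhydrase that marks hypoxic cells, had the largest log2 fold change of the members in absolute value, yet just missed the threshold. It was at 262.8 and 169.6 normalized reads in the controls, against 79.4 and 82.5 after induction. The induced libraries were close together and below both controls, but the controls were far apart, and the log2 fold change of -1.37 (SE 0.25) did not pass (limma adjusted p = 0.0506). Without control replicate 2 it passed (limma adjusted p = 0.0376). Car9 overlaps Gm12454 on the opposite strand, which had 92.7 to 106.9 normalized reads in the controls, against 66.3 to 68.6 after induction, and this kit does not mark strand. Its window is chr4:43506776-43507075 on the + strand of GRCm38.p6, shown because Car9 is a widely used reporter of HIF.
Car9: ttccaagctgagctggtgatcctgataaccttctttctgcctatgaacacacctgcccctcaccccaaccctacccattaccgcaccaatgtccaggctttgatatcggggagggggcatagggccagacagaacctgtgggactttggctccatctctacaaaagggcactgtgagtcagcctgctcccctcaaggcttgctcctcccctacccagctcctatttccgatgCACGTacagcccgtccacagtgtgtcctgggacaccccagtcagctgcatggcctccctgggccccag
It held 1 ACGTG match and no GCGTG.

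The other 7 target genes did not pass. Higd1a, a mitochondrial protein gene, had a log2 fold change of 0.24 with both induced libraries above the controls. The mitophagy receptor genes Bnip3 (-0.01) and Bnip3l (0.00) and Ankrd37 (-0.02) overlapped between the groups. The transcription factor genes Bhlhe40 (-0.07) and Mxi1 (-0.13) and the peptide hormone gene Adm (-0.20) had values below 0. For Bnip3, 47.2% of 50-base stretches occur in another gene. Ero1l, the older symbol of the listed Ero1a, an oxidase of protein folding, was found in the table and is named here after its values were seen: it was at 7692 and 7142 normalized reads in the controls, against 6492 and 6054 after induction, with a log2 fold change of -0.24 (SE 0.07, limma adjusted p = 0.154).

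Related genes outside the listed members were described by 7 further lists. Of 133 listed genes, 113 were in the table and 103 were tested; 7 rose, 2 fell, and the median log2 fold change was -0.04. That is 8.74% called, beside 3.42% of all tested genes. Gbe1, Gys1 and Cited2 stand on 2 of the lists.

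Among 15 tested genes of other glycolytic isozymes and glucose transporters, Slc2a5 fell (1 of 15, beside 1.34% of all tested genes). It encodes GLUT5, a fructose transporter. It was at 650.1 and 634.0 normalized reads in the controls, against 289.2 and 293.1 after induction. The replicates were close and the groups far apart, with a log2 fold change of -1.14 (SE 0.11, limma adjusted p = 0.0102), and it passed in all 12 refits under other settings. Of 16 genes of pyruvate entry and dehydrogenation, Emb rose from 3878 and 3865 normalized reads to 5027 and 5244, or 1.33-fold (limma adjusted p = 0.0312). Emb encodes embigin, a partner of monocarboxylate transporters. It was the 1 gene called of the 16, beside 3.42% of all tested genes.

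In the pentose phosphate pathway, which makes NADPH and ribose from glucose 6-phosphate, 2 of 12 tested genes rose (16.7%, beside 2.08% of all tested genes). Pgd, the phosphogluconate dehydrogenase of the cytosol, was at 6015 and 6896 normalized reads in the controls, against 8918 and 9014 after induction, 1.39-fold higher (limma adjusted p = 0.0405). H6pd, which carries out the opening steps inside the endoplasmic reticulum, rose from 5435 and 4769 normalized reads to 6859 and 7473, or 1.40-fold (limma adjusted p = 0.0468). G6pdx, the first enzyme, had a log2 fold change of 0.30 and did not pass (limma adjusted p = 0.0767). The list's median was 0.04.

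Of 15 tested genes of the glycogen and glycerol branch, 1 rose and 1 fell, beside 2.08% higher and 1.34% lower among all tested genes. The branching enzyme gene Gbe1 rose from 1270 and 1231 normalized reads to 2361 and 2102, or 1.78-fold (log2 fold change 0.83, SE 0.09, limma adjusted p = 0.0121). Ugp2, which makes UDP-glucose for glycogen and glycans, fell from 2676 and 2741 to 2045 and 2056 (log2 fold change -0.40, limma adjusted p = 0.0384). None of the 3 tested gluconeogenesis genes and none of the 15 other HIF pathway regulators passed in limma or limma voom. An unadjusted limma p under 0.05 was reached by 2 of the 3 and 5 of the 15, beside 2535 of the 13276 tested genes. When each library was left out in turn, Ugp2 and Emb lost their calls in all 4 fits, Pgd in 3 (kept without control replicate 2) and H6pd in 3 (kept without control replicate 1), at limma adjusted p-values up to 0.148.

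Of 30 further hypoxia target genes, 4 rose and none fell in limma, beside 2.08% higher and 1.34% lower among all tested genes. An unadjusted limma p under 0.05 was reached by 12 of the 30, beside 2535 of the 13276 tested genes. Tfrc, the transferrin receptor gene, rose from 4629 and 4778 normalized reads to 7669 and 7893, or 1.65-fold (limma adjusted p = 0.00719). Fam162a rose from 4074 and 4197 to 7873 and 6197, or 1.70-fold (limma adjusted p = 0.0337). Fam162a overlaps exons of Wdr5b, and its call was lost without control replicate 1 or 2 (limma adjusted p = 0.0929 and 0.0776). Gbe1, given above, also stands on this list. Both induced libraries lay above both controls for 7 of the 30 (23.3%, beside 26.2% of all tested genes) and below for 8 (26.7%, beside 25.1%). Vegfa, the angiogenic growth factor gene, was at 2593 and 2474 normalized reads in the controls, against 2576 and 2564 after induction, which overlapped (limma adjusted p = 0.893).

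**Figure D4:**
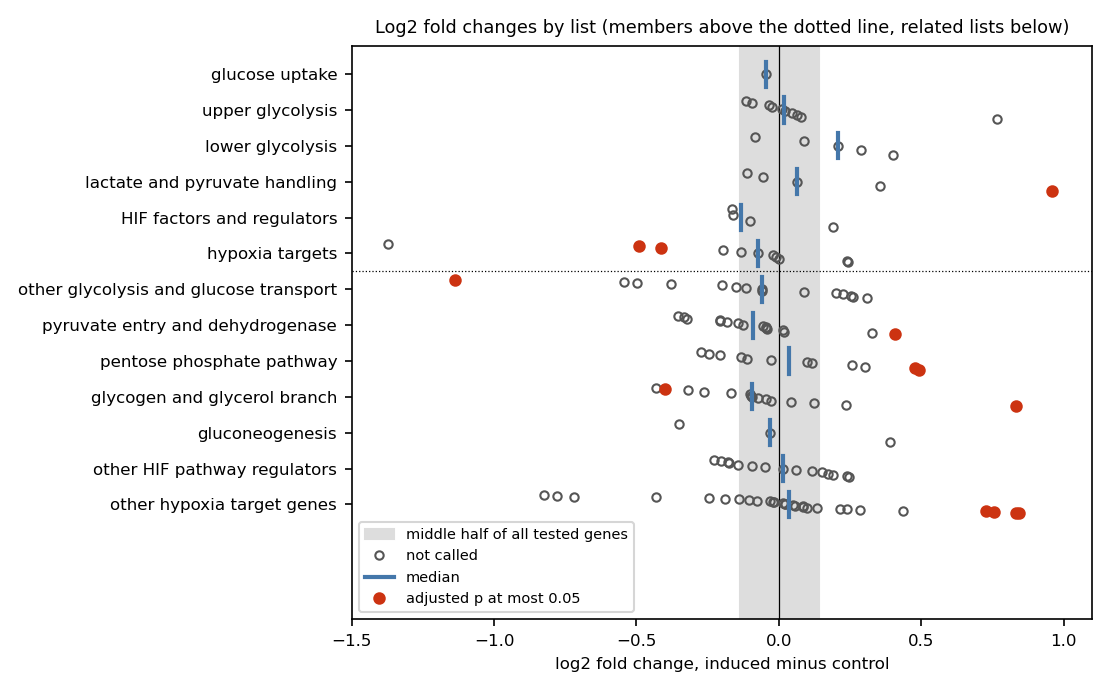
Log2 fold changes (induced minus control) of the tested genes in the 6 role groups of the members and the 7 related lists; filled points passed an adjusted p of 0.05, bars are medians, and the grey band is the interquartile range of all tested genes, -0.14 to 0.14. Epo, at 3.54, lies beyond the axis and is not drawn; the medians of all lists but lower glycolysis lie within the band.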

How the data were processed

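RNA was sequenced in 4 libraries, 2 control and 2 induced. Trizol extraction and a TruSeq RNA kit, a type that keeps no strand information, were used per the labels' protocols. Per the submitters' processing notes, HISAT, Cufflinks and genome build mm9 were used. Neither the read counter nor the scaling factors are named in these sources. The deposited values are log2 values, and their steps show log2(normalized read count + 1). The 1 was subtracted, and the values of each library were divided by its fitted step (0.927 to 1.26 normalized reads). After that, 100% of values were whole reads within a tolerance of 0.01.

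The deposited log2 values of the 13276 genes averaging 1 CPM or more were fitted with limma 3.58.1 in R 4.3.3, with a variance trend, both groups and no covariate, two-sided, and Benjamini-Hochberg adjustment over all tested genes (threshold 0.05). The pseudocount of 1 understates changes of genes with few reads. A fold is the ratio of group means. There were 2 residual degrees of freedom. The fitting script was tested on simulated data.

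The members and all lists were chosen with earlier results of these data known. Library values were given for called members, members with an absolute log2 fold change of at least 0.5, the member with the most reads in each role group, Pja2, and called genes of the related lists. The values of 1 called gene of the related lists are not reported here. Eno1, Vegfa and G6pdx were named outside this rule, after their values were seen. Exon lengths, overlaps and shared 50-base stretches came from GENCODE M21 (GRCm38), a later build than mm9. An exon length is that of all annotated exons of a gene, merged over its transcripts. The 12 alternatives were no filter, 5 CPM, a pseudocount of 8, 2 other scalings, no variance trend, limma voom on recovered reads, a replicate block, and each library left out. Replicates differed by more than counting noise (20.7 in controls and 15.9 in induced libraries as chi-square per gene), so none was a copy of another.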

Additional observations from a re-analysis of the deposited data

How the results depend on the processing

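Under the 12 alternatives, no result changed direction where it had passed the threshold. The count of genes higher in induced cells (276) became 100 with no filter on low values, 64 without the variance trend and 113 to 204 when each library was left out, and the count of lower genes (178) became 59, 52 and 78 to 136. Of the members, 0 to 2 were higher and 0 to 1 lower when a library was left out (the lower one was Car9 without control replicate 2 and Ndrg1 without induced replicate 1, and Pfkfb3 joined Ldhb without control replicate 2), and 0 were lower with no filter or without the trend. Ldhb passed in 9 of 12 refits, Ndrg1 in 6 and P4ha2 in 5. Replicate numbers were shared between groups, but same-numbered libraries did not deviate together (correlation of replicate differences across genes -0.0950). The labels do not say whether same-numbered libraries were handled together, and 1 correlation cannot decide it. With the replicate block, 157 genes were higher and 104 lower, and 0 members were lower. Other scalings moved the median log2 fold change of all genes by at most 0.02. The 2 libraries a group limit the precision.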

Other observations

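Epo, the erythropoietin gene and a classic hypoxia target on the related list, had 0 reads in both control libraries and in induced replicate 1, and 144 reads (133.5 normalized reads) in induced replicate 2. Its log2 fold change of 3.54 (SE 2.26, limma adjusted p = 0.455) rests on that 1 library. Its exons overlap those of Gnb2, which was at 8100 and 8705 normalized reads in the controls, against 7880 and 7443 after induction.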
